A study of Mus musculus with 6 samples.

Results

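Antigen presentation was followed in whole liver through 10 genes of the major histocompatibility complex (MHC) pathway, which were found by their symbols in the count table. They were 5 genes of class I presentation (H2-K1, H2-D1, B2m, Tap1 and Tap2) and 5 of class II presentation (H2-Aa, H2-Ab1, H2-Eb1, Cd74 and Ciita), of 20140 genes listed in all. All 10 were listed and all 10 passed the filter on low counts, which left 16370 genes for testing. Class I and class II genes were described apart.

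Bulk poly-A RNA was sequenced from 6 mouse livers collected on day 21, with 2 livers per group. Livers of the sham group came from mice given PBS. The labels of the other groups name CT26, a BALB/c colon carcinoma cell line, and read only intra-C and intra-S. By the methods of the study, CT26 cells were implanted into the cecum in the orthotopic model, in which the liver is followed before metastasis, and were injected into the spleen in the model that gives liver metastases. The labels name no engineered allele, and mice for tumor models were purchased at 6 to 10 weeks of age. The strain is not in the labels, but the study gives BALB/c, which carries the d haplotype of the MHC, for both CT26 models. In intra-S livers, RNA of tumor cells and of host cells cannot be told apart. In bulk RNA, fewer cells of a type and less RNA per cell cannot be told apart either. Nothing in the labels says that the livers of a group came from separate experiments, so p-values measure the spread between these samples.

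Class I molecules are made by nearly all nucleated cells. A heavy chain (H2-K1, H2-D1) folds with β2-microglobulin (B2m) around a peptide that the proteasome cut in the cytosol and the TAP transporter (Tap1 and Tap2) carried into the endoplasmic reticulum, and the complex is read by CD8+ T cells. Class II molecules are pairs of an α and a β chain (H2-Aa with H2-Ab1, H2-Ea with H2-Eb1). They are held by the invariant chain Cd74 until they meet peptides in endosomes, and are shown to CD4+ T cells by dendritic cells, B cells and macrophages. Ciita is the coactivator that class II promoters need, and Nlrc5 is its class I counterpart. In the liver, hepatocytes have little class I and almost no class II, and Kupffer cells and sinusoidal endothelium present antigen.

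By RefSeq coordinates (GRCm38.p6), the 5 H2 members of both classes, Tap1 and Tap2 lie within the MHC on chromosome 17, between the start of H2-K1 (chr17:33996012-34000619) and the end of H2-D1 (chr17:35263094-35267497). B2m (chr2:122147687-122153082), Ciita (chr16:10480014-10531064) and Cd74 lie outside it.

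Promoters of classical class I and class II chain genes and of B2m are known for a conserved module, so the sequence ahead of the start site is shown for the members the promoter table held. The module holds an X2 box, a site of the CREB family, and a Y box, an inverted CCAAT box bound by NF-Y. The RefSeq promoter table (GRCm38.p6) held 6 of the 10 members. The windows run from 150 to 11 bases ahead of the start site, on the strand of the gene. Capitals mark TGANG and ATTGG where 19 to 21 bases lie between them, searched on both strands. The H2-K1 window (second listed start site, chr17:34000344-34000483, minus strand), the H2-D1 window (chr17:35262944-35263083, plus strand), the B2m window (chr2:122147537-122147676, plus strand), the H2-Aa window (chr17:34287834-34287973, minus strand) and the H2-Eb1 window (chr17:34305717-34305856, plus strand) held this paired element.
H2-K1: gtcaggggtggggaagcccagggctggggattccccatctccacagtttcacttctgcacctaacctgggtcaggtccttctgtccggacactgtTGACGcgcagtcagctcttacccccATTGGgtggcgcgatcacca
H2-D1: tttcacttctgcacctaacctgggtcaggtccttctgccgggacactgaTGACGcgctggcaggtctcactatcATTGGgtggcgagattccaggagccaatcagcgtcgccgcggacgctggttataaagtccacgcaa
B2m: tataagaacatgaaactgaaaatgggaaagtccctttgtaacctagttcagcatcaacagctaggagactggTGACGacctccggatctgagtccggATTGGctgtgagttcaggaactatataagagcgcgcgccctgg
H2-Aa: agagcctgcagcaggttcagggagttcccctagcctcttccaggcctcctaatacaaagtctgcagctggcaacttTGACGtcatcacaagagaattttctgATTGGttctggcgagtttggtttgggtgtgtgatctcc
H2-Eb1: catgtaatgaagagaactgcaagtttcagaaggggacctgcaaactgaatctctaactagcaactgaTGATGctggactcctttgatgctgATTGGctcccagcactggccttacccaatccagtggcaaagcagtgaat
The Tap1 window (chr17:34187406-34187545, plus strand) and that of H2-Q10 (chr17:35469939-35470078, plus strand), a secreted class I heavy chain of the liver that is no member, are shown for contrast, because the letters of the paired element are not in them. H2-Q7, another class I heavy chain that is no member, held the paired element in its window.
Tap1: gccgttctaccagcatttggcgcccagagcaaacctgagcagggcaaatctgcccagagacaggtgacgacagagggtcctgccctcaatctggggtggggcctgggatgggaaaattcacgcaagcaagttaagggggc
H2-Q10: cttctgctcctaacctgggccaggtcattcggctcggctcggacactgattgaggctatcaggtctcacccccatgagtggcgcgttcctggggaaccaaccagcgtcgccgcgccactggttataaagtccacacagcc

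The paired element was found in 5 of the 6 members' promoters. Among all 32851 promoters of the same length in the table, which run from 250 bases before to 50 after the start, 0.947% held it. The pattern was written after these promoters had been read, so its count is a description and not a test. H2-K1, H2-D1 and H2-Q10 also held the letters GAANNGAAA on the opposite strand (tttcacttc), as did 7.52% of all promoters. The paired element thus stood at members of both classes.

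**Figure D1:**
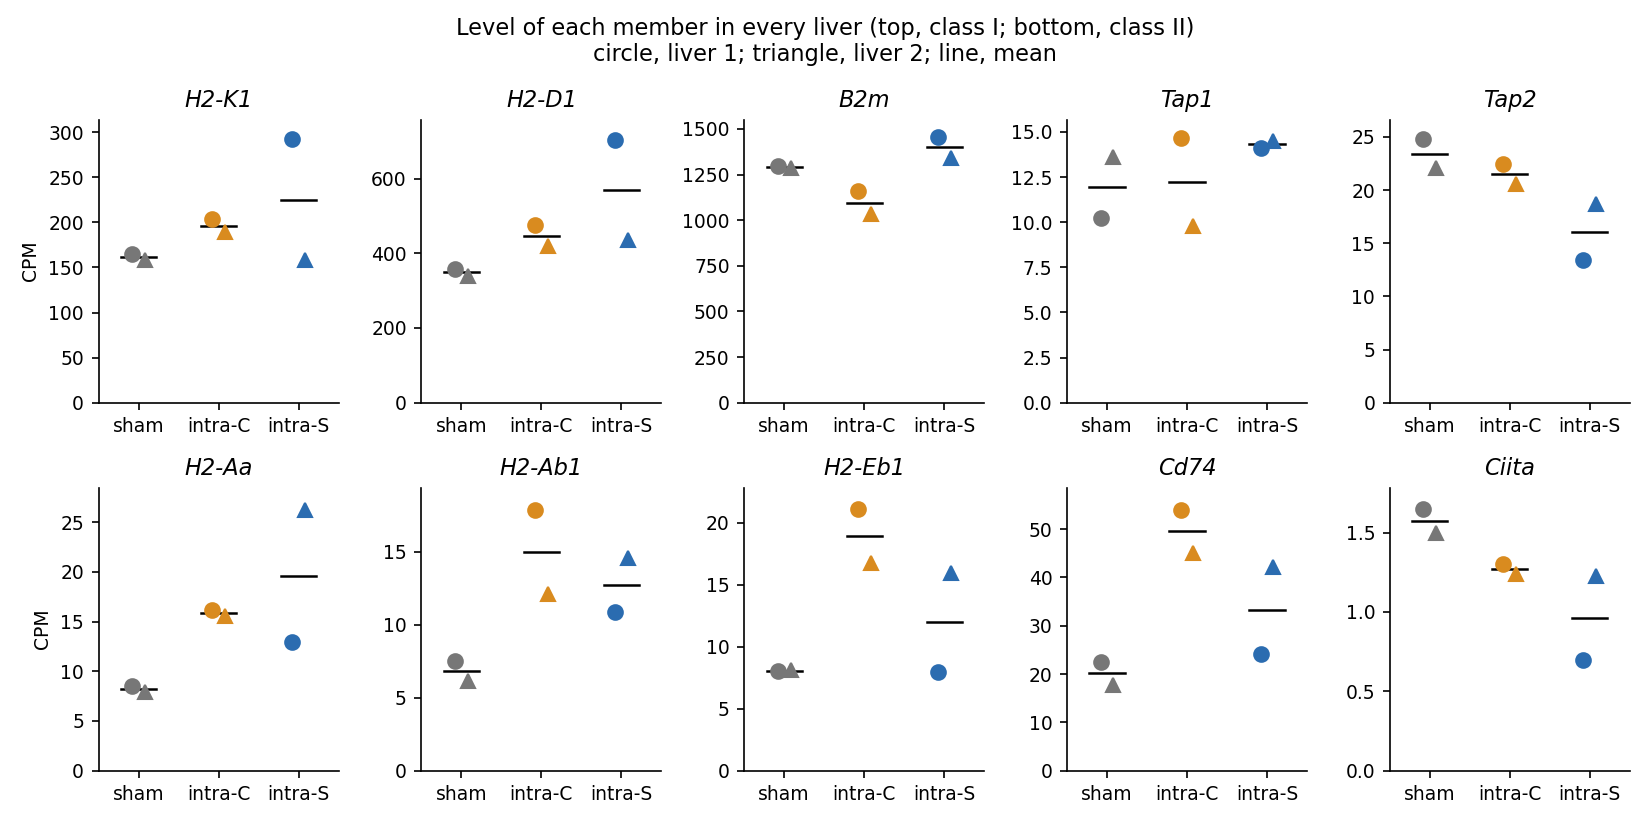
Level of the 10 members in each of the 6 livers, in CPM (counts scaled to the size of the library, y axis from 0) by group (x axis); circles are liver 1, triangles liver 2 and lines the mean of 2 livers. Cd74 read 54.0 and 45.1 CPM in the intra-C livers against 22.6 and 17.8 CPM in the sham livers, and the intra-S livers lie far apart for H2-K1, H2-D1 and H2-Aa.

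Levels per length, in the TPM values that the authors computed from counts and gene lengths, set the order of the members in sham livers. B2m stood first at 3402 and 3366 TPM. The heavy chains followed, H2-D1 at 116 and 110.0 TPM and H2-K1 at 59.3 and 56.7 TPM. B2m thus stood 19.4 and 20.2 times above the sum of both heavy chains. Cd74 came next at 35.9 and 28.3 TPM, and was the most abundant class II member in every liver. The TAP subunits were far below the chains they serve, with Tap2 at 5.60 and 4.97 TPM and Tap1 at 1.95 and 2.59 TPM. The class II chains lay between these subunits. H2-Aa read 4.25 and 3.95 TPM, H2-Ab1 3.55 and 2.90 TPM and H2-Eb1 2.70 and 2.73 TPM. Ciita was last at 0.379 and 0.342 TPM. No neighbours in this order overlapped between the 2 sham livers.

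Part of the order differed in the other groups. In intra-C livers Cd74 read 72.9 and 65.0 TPM and stood above H2-K1, which read 62.1 and 61.6 TPM. H2-Aa (6.83 and 7.03 TPM), H2-Ab1 (7.18 and 5.20 TPM) and H2-Eb1 (6.04 and 5.12 TPM) stood above Tap2 (4.31 and 4.20 TPM) there. H2-Aa lay above H2-Eb1 without overlap in these livers, and H2-Ab1 overlapped both. In intra-S livers Cd74 (30.1 and 56.5 TPM) overlapped H2-K1 (82.5 and 47.9 TPM). B2m stayed first and Ciita last in all 6 livers.

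Class II genes were compared first between intra-C and sham livers, since this contrast asks what changes in a liver before metastasis. The test was the quasi-likelihood test of edgeR, on counts, in 1 fit over the 6 livers. Levels in CPM are counts scaled by the library size after TMM normalization, and a gene was called at an adjusted p under 0.05 (Benjamini-Hochberg over the 16370 genes). None of the 10 members was called by this test. Across all genes tested, 4.92% were called higher and 2.38% lower, 7.30% in all. At an unadjusted p under 0.05, 4 of 5 class II members were higher and none lower, against 15.2% and 11.8% of all genes. For class I members both numbers were 0. DESeq2 called 3 class II members higher, H2-Ab1, H2-Eb1 and Cd74, and no class I member, beside 10.4% of all genes called higher.

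Cd74, the invariant chain, had 22.6 and 17.8 CPM in sham, 54.0 and 45.1 CPM in intra-C and 24.1 and 42.2 CPM in intra-S livers. Both intra-C livers lay above both sham livers, and so did the intra-S livers, 1 of them by little. The intra-C level was 2.45-fold the sham level (log2 fold change 1.29, SE 0.31, 95% interval 0.55 to 2.03, adjusted p = 0.057 by edgeR's quasi-likelihood test).

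H2-Eb1, the β chain of the E molecule, had 8.01 and 8.13 CPM in sham, 21.11 and 16.7 CPM in intra-C and 7.99 and 16.0 CPM in intra-S livers. The intra-C livers stood clear of sham, whereas one intra-S liver was at the sham level and the other near the intra-C level. The difference of intra-C from sham was 1.23 (SE 0.35, 95% interval 0.39 to 2.07, adjusted p = 0.085) on the log2 scale.

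H2-Ab1, the β chain of the A molecule, had 7.51 and 6.16 CPM in sham, 17.9 and 12.1 CPM in intra-C and 10.9 and 14.6 CPM in intra-S livers. All 4 livers of the CT26 groups lay above both sham livers. Its log2 fold change was 1.14 in intra-C (SE 0.29, 95% interval 0.44 to 1.83, adjusted p = 0.068) and 0.90 in intra-S livers (SE 0.29, 95% interval 0.20 to 1.59, adjusted p = 0.097).

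H2-Aa, its α partner, had 8.52 and 7.95 CPM in sham, 16.1 and 15.6 CPM in intra-C and 12.9 and 26.2 CPM in intra-S livers. Sham was again lowest, and the highest of the 6 livers was the second intra-S liver. The log2 fold change was 0.94 in intra-C (SE 0.34, adjusted p = 0.14) and 1.25 in intra-S livers (SE 0.34, 95% interval 0.43 to 2.07, adjusted p = 0.066).

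Ciita, the coactivator of these 4 genes, did not share their order of groups. It had 1.65 and 1.49 CPM in sham, 1.30 and 1.24 CPM in intra-C and 0.700 and 1.23 CPM in intra-S livers. Sham was highest for this gene, and the other groups lay below it without overlap, as did 34.0% of all genes in intra-C and 30.0% in intra-S livers. These levels rest on 24 to 67 counts per liver, and the intervals are wide (log2 fold change -0.31, 95% interval -1.42 to 0.81 in intra-C, and -0.70, 95% interval -1.83 to 0.42 in intra-S livers).

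H2-Ea, the α partner of H2-Eb1 and not a member, was read as a check of the haplotype. The reference genome comes from C57BL/6J, whose b haplotype has a deletion that silences this gene, while the d haplotype of BALB/c transcribes it. It had 401 to 1037 counts per liver and stood 1.55 to 2.55 times above H2-Eb1 in TPM in the 6 livers. It was thus transcribed in every liver. Its levels, 9.88 and 9.94 CPM in sham, 20.4 and 19.6 CPM in intra-C and 12.7 and 25.4 CPM in intra-S livers, ran close to those of H2-Aa (log2 fold change 1.01, adjusted p = 0.12 in intra-C, and 0.94, adjusted p = 0.12 in intra-S livers).

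The median log2 fold change of the class II members was 1.14 for intra-C against sham, beside 0.01 over all genes tested. That of the class I members was 0.04. In 4 of 5 class II members both intra-C livers were above both sham livers, and in Ciita both were below. Such a gap separated 34.4% of all genes upward and 34.0% downward, so such a gap is common at 2 livers per group. The class II count turned on which intra-S livers entered the fit, for a reason that was not tested. Without the first intra-S liver, or without the second, all 4 class II members other than Ciita were called higher in intra-C than in sham livers, and the same 4 were called when only these groups were fitted. The share of all genes called higher was larger in these fits as well, at 14.5%, 14.4% and 16.3%.

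**Figure D2:**
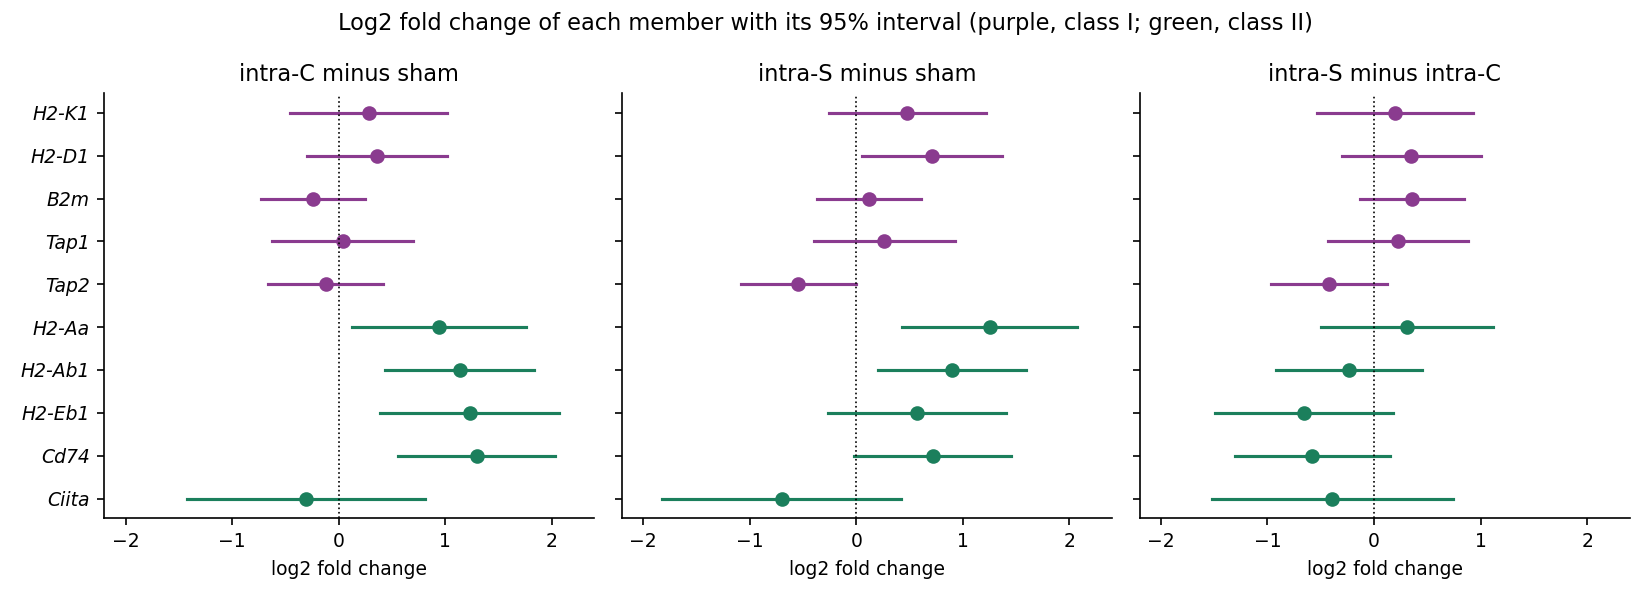
Log2 fold change (x axis, with its 95% interval) of the 10 members (y axis) for the 3 comparisons, class I in purple and class II in green. In the first panel the intervals of H2-Aa, H2-Ab1, H2-Eb1 and Cd74 lie above 0, from 0.13 at the lowest bound, while those of the 5 class I members and Ciita include 0.

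Class I genes read otherwise. H2-D1 had 357 and 340 CPM in sham, 475 and 419 CPM in intra-C and 703 and 436 CPM in intra-S livers. All livers of the CT26 groups lay above both sham livers, and one intra-S liver stood far above the rest. The log2 fold change was 0.36 (SE 0.27, 95% interval -0.30 to 1.01, adjusted p = 0.45) in intra-C and 0.71 (SE 0.27, 95% interval 0.05 to 1.37, adjusted p = 0.14) in intra-S livers.

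H2-K1, the other classical heavy chain, had 165 and 158 CPM in sham, 204 and 189 CPM in intra-C and 292 and 158 CPM in intra-S livers. The intra-C livers were above sham, and the intra-S livers ranged from the sham level to the highest value. Its log2 fold change was 0.28 (SE 0.31, adjusted p = 0.60) in intra-C and 0.48 (SE 0.31, adjusted p = 0.34) in intra-S livers. Without the first intra-S liver, the latter value was -0.03.

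B2m, the light chain that every class I molecule needs, had 1297 and 1287 CPM in sham, 1159 and 1032 CPM in intra-C and 1456 and 1343 CPM in intra-S livers. Intra-C livers were the lowest and intra-S livers the highest. Neither difference from sham was called (log2 fold change -0.24, SE 0.20, 95% interval -0.72 to 0.25, and 0.12, SE 0.20, 95% interval -0.37 to 0.60). The intra-S value was -0.16 with library size in place of TMM, a scaling that moved the median of all genes by -0.27, and 0.11 relative to that move. B2m stood 13.4 and 13.3 times above both heavy chains together in intra-C livers, and 11.5 and 17.8 times in intra-S livers (TPM), all under the ratio in sham livers.

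Tap2 had 24.8 and 22.1 CPM in sham, 22.5 and 20.5 CPM in intra-C and 13.4 and 18.7 CPM in intra-S livers. It was lowest in intra-S livers, which did not overlap with the others, at a log2 fold change of -0.55 against sham (SE 0.23, adjusted p = 0.16). Its partner Tap1 had 10.2 and 13.6 CPM in sham, 14.7 and 9.78 CPM in intra-C and 14.1 and 14.5 CPM in intra-S livers. Here the sham and intra-C livers overlapped, and neither log2 fold change from sham was called (0.04 and 0.26). With library size in place of TMM, which moved the median of all genes by -0.26 and -0.27, these values were -0.24 and -0.011, or 0.02 and 0.26 relative to that move. Over the 6 livers the TAP subunits had a Pearson r of -0.40, so they did not run together.

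Between intra-S and sham livers, no member was called by edgeR's test, beside 6.78% of all genes called higher and 3.95% lower, 10.7% in all. At an unadjusted p under 0.05, H2-D1, H2-Aa and H2-Ab1 were higher and Tap2 was lower, against 17.2% and 13.0% of all genes, and DESeq2 called H2-Aa higher, beside 12.6% of all genes. In 3 class I and 3 class II members both intra-S livers lay above both sham livers, and in 1 member of each class below, against 30.4% and 30.0% of all genes. The median log2 fold change was 0.26 for class I and 0.72 for class II members, beside 0.04 over all genes. This comparison used the same sham livers as that of intra-C.

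Directly between intra-S and intra-C livers, no member was called, nor was any other gene by edgeR (0% of genes either way), although 6.99% had an unadjusted p under 0.05 with the higher level in intra-S and 6.41% with the lower. DESeq2 called 527 genes and no member. The differences of the members ranged from -0.66 for H2-Eb1 (95% interval -1.49 to 0.17, adjusted p = 0.44) to 0.35 for B2m (95% interval -0.13 to 0.84, adjusted p = 0.47). These intervals leave room for a difference of more than 2-fold in H2-Eb1, so the groups are not shown to be alike. B2m lay apart upward and Tap2, H2-Eb1, Cd74 and Ciita downward, against 21.9% and 21.5% of all genes.

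The intra-S livers differed from each other in most members. H2-K1 and H2-D1 were higher in the first intra-S liver, and all 5 class II members were higher in the second. Of the other class I members, Tap2 was higher in the second (13.4 against 18.7 CPM), while B2m differed 1.08-fold and Tap1 1.03-fold. H2-Aa read 12.9 against 26.2 CPM, and H2-K1 292 against 158 CPM. The TPM of both class I heavy chains together stood 16.7 and 17.4 times above the 3 class II chains in sham, 9.61 and 10.6 times in intra-C, and 23.3 and 7.82 times in intra-S livers. The intra-S livers thus lay on either side of the other groups. Over 9283 genes with a mean of at least 5 CPM, the median fold between the livers of a group was 1.10 in sham, 1.15 in intra-C and 1.37 in intra-S, and 39.0% of these genes differed by over 1.5-fold between the intra-S livers.

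**Figure D3:**
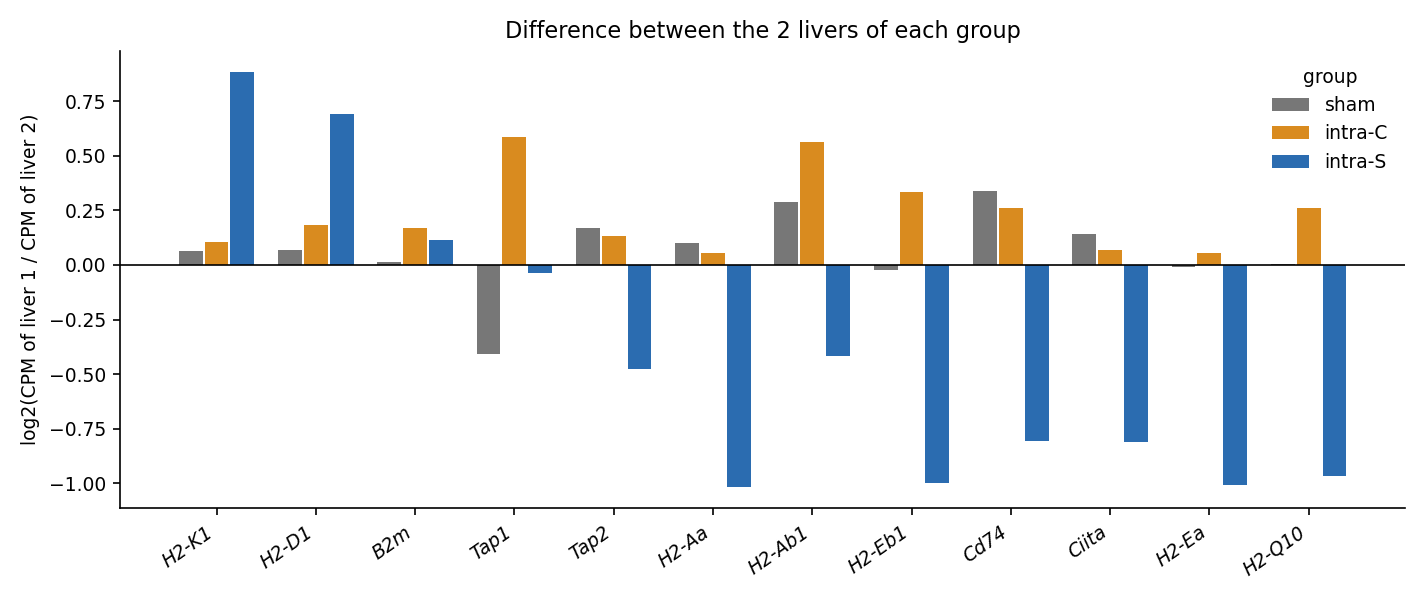
Log2 ratio of the CPM of liver 1 over liver 2 (y axis) in each group (bar color) for the 10 members, H2-Ea and H2-Q10 (x axis). In intra-S, bars of H2-K1 and H2-D1 point up and those of the class II genes, H2-Ea and H2-Q10 point down, and the intra-S bar is the longest of the 3 for all but B2m, Tap1 and H2-Ab1.

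The count of calls turned on these livers. Without the second intra-S liver, 3 class I members differed between intra-S and sham livers by edgeR, H2-K1 (log2 fold change 0.86, adjusted p = 0.0057) and H2-D1 (1.01, adjusted p = 0.0031) higher and Tap2 (-0.80, adjusted p = 0.016) lower, and of class II only H2-Aa (0.65, adjusted p = 0.037). Without the first intra-S liver, no class I member was called, and H2-Aa (1.68, adjusted p = 0.0014), H2-Ab1 (1.10, adjusted p = 0.036), H2-Eb1 (0.99, adjusted p = 0.018) and Cd74 (1.07, adjusted p = 0.014) were higher. Across all genes, 17.3% were called higher and 15.4% lower without the second intra-S liver, and 9.58% higher and 6.93% lower without the first. A lone liver is taken to vary like the livers of the other groups in these fits.

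Over the 6 livers, levels of Cd74 and H2-Eb1 had a Pearson r of 0.97 on the log2 CPM scale, and those of H2-K1 and H2-D1 one of 0.93. Tap2 ran with Ciita (r = 0.97) and both ran against H2-D1 (r = -0.89 and -0.96). These 6 points share groups, libraries and depth, and are given as a description. The genes most like the class II profile (mean of the standardized log2 CPM of its 5 members) were Taf1, Foxk2, Ssr3, Sppl2a and Gm6493, with r between 0.979 and 0.997 among 9274 genes with at least 5 CPM. Of the members, H2-Eb1 had r = 0.98 with this mean and Ciita 0.11. The class I profile was closest to Wsb2, Ppp3cc, Tcf3, Lsm1 and Fam122a (r between 0.979 and 0.993), but Tap2 itself had r = -0.69 with it, so that the 5 class I members did not share a profile in these livers.

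Markers of cell types were read beside the class II levels. Of 6 Kupffer cell markers, 6 were called higher in intra-C and 5 in intra-S than in sham livers, beside 4.92% and 6.78% of all genes called higher in these comparisons. Their summed level was 145 and 143 CPM in sham, 713 and 880 CPM in intra-C and 383 and 819 CPM in intra-S livers. Like Cd74, this sum was lower in the first than in the second intra-S liver. So were the sums of monocyte and macrophage, dendritic cell, B cell, and T and NK cell markers. Those of neutrophil, sinusoidal endothelial and hepatocyte markers were higher in the first. Of genes with a mean of at least 5 CPM, 39.0% differed by over 1.5-fold between these livers. All 8 neutrophil markers were called higher in both comparisons, with a sum of 3.77 and 4.66 CPM in sham, 224 and 449 CPM in intra-C and 788 and 340 CPM in intra-S livers. Of 7 monocyte and macrophage markers, 3 were called higher in either comparison (sum 29.0 and 26.6, 128 and 181, and 122 and 174 CPM). These sums of myeloid markers were above sham in all 4 livers of the CT26 groups.

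Markers of dendritic cells and B cells, which carry much class II per cell, were low in all groups. None of 9 dendritic cell markers was called, and their sum was 10.3 and 7.15 CPM in sham, 11.1 and 16.1 CPM in intra-C and 10.15 and 13.6 CPM in intra-S livers. Their median log2 fold change was 0.90 in intra-C and 0.87 in intra-S livers, beside 0.01 and 0.04 over all genes. Of the 9, 6 and 7 had a log2 fold change above 0. None of 6 B cell markers was called either, at 3.47 and 4.19 CPM in sham, 0.968 and 1.64 CPM in intra-C and 2.54 and 4.34 CPM in intra-S livers. All 6 were below sham in both intra-C livers, beside 34.0% of all genes. No T and NK cell marker of 7 tested was called (sum between 3.03 and 8.46 CPM). Of 6 sinusoidal endothelial markers, 1 and 2 were called higher in intra-C and intra-S livers, beside 4.92% and 6.78% of all genes. Their sum was 93.2 and 106 CPM in sham, 227 and 246 CPM in intra-C and 320 and 215 CPM in intra-S livers. At an unadjusted p under 0.05 by edgeR's test, 6 and 5 of them were higher, beside 15.2% and 17.2% of all genes. All 6 lay above sham without overlap in both comparisons, beside 34.4% and 30.4% of all genes. At an unadjusted p under 0.05, the dendritic cell markers Flt3 and Clec9a were higher and the B cell marker Cd79a was lower in intra-C livers, and Itgax, Cd3d and Cd8a were higher in intra-S livers. Those except Clec9a and Cd79a were named after their values were seen. DESeq2 called 1 dendritic cell marker in intra-C livers, 1 T and NK cell marker in intra-S livers and no B cell marker. Of all genes it called 10.4% and 12.6% higher in these comparisons, and 2819 and 3530 of 16370 in either direction. No marker list had a gene at 0 in all livers. Hepatocyte markers such as Alb were abundant in all 6 livers. The part of cell composition in the class II levels was not tested.

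Other genes of the pathway were tested against sham in the same fit. Without either sham liver no gene of the table was called, and without either intra-C liver at most 65 genes were called in intra-C. Of 10 tested genes of processing and other chains, 4 were called higher in intra-C and 4 in intra-S livers and none lower, beside 4.92% and 6.78% of all genes called higher. All 10 were above sham without overlap in intra-C livers, beside 34.4% of all genes. Ctss, the cysteine protease that trims the invariant chain, had 14.5 and 13.2 CPM in sham, 90.5 and 97.1 CPM in intra-C and 74.8 and 121 CPM in intra-S livers. It rose 6.77-fold in intra-C (log2 fold change 2.76, SE 0.28, adjusted p = 0.0074) and 7.05-fold in intra-S livers (2.82, SE 0.28, adjusted p = 0.0061). Lgmn, the asparaginyl endopeptidase of endosomes, rose 5.18-fold and 5.34-fold, from 28.1 and 29.3 CPM in sham to 151 and 146 CPM in intra-C and 134 and 172 CPM in intra-S livers.

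Marchf1, the ubiquitin ligase that sends class II molecules to degradation, rose as well, by 3.25 (SE 0.37, adjusted p = 0.010) in intra-C and 2.80 (SE 0.37, adjusted p = 0.011) in intra-S livers on the log2 scale. Its levels were low, at 1.60 and 1.38 CPM in sham, 12.9 and 15.4 CPM in intra-C and 7.23 and 13.6 CPM in intra-S livers. Ifi30, a lysosomal thiol reductase named here after its values were seen, completed the 4 (log2 fold change 1.06, adjusted p = 0.032, and 1.29, adjusted p = 0.016). Ctsl, the most abundant gene of the list, had 703 and 791 CPM in sham, 1809 and 1060 CPM in intra-C and 3122 and 1022 CPM in intra-S livers and was not called (0.94, adjusted p = 0.31, and 1.47, adjusted p = 0.13).

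The factors that bind class II promoters together with Ciita gave no call in 7 tested. Nfyc, a subunit of NF-Y and the one with the highest mean TPM, had 17.5 and 18.3 CPM in sham, 14.7 and 14.8 CPM in intra-C and 18.3 and 14.7 CPM in intra-S livers. Their median log2 fold change was -0.16 in intra-C and -0.12 in intra-S livers, beside 0.01 and 0.04 over all genes. Rfx5, a subunit of the RFX complex named here after its values were seen, had a log2 fold change of -1.01 in intra-C livers (unadjusted p = 0.045, adjusted p = 0.17 by edgeR), and no other factor had an unadjusted p under 0.05. DESeq2 called none.

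Among 8 genes of class I peptide loading and its regulator, 2 were called higher in intra-C livers and none in intra-S livers, beside 4.92% and 6.78% of all genes. Nlrc5, the class I coactivator, had 10.4 and 9.71 CPM in sham, 22.5 and 18.9 CPM in intra-C and 17.7 and 16.5 CPM in intra-S livers. It rose 2.06-fold in intra-C (log2 fold change 1.04, SE 0.20, adjusted p = 0.035), and in intra-S livers the value was 0.77 (SE 0.20, adjusted p = 0.058). Lnpep, an aminopeptidase of endosomes that also trims peptides for cross-presentation, had 4.41 and 3.24 CPM in sham, 11.9 and 16.1 CPM in intra-C and 3.82 and 4.47 CPM in intra-S livers. Its rise in intra-C was 3.67-fold (adjusted p = 0.022), and its log2 difference in intra-S was 0.12 (adjusted p = 0.82). Calr, a chaperone of peptide loading and the most abundant of the list, had 620 and 625 CPM in sham, 950 and 1068 CPM in intra-C and 445 and 820 CPM in intra-S livers and was not called.

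The immunoproteasome, the interferon-inducible form that cuts many class I peptides, was not called in any of 5 genes by edgeR, with none at an unadjusted p under 0.05 and none by DESeq2. All 5 lay below sham in both intra-C livers, beside 34.0% of all genes, with a summed level of 243 and 247 CPM in sham, 156 and 169 CPM in intra-C and 94.1 and 229 CPM in intra-S livers. Psme1, an activator subunit and the most abundant, had 76.0 and 74.8 CPM in sham, 49.7 and 53.6 CPM in intra-C and 37.5 and 74.6 CPM in intra-S livers (log2 fold change -0.55, adjusted p = 0.33, and -0.43, adjusted p = 0.42). The 4 constitutive proteasome counterparts, led by Psmb7, were also below sham in both intra-C livers, against the same 34.0% of all genes, and uncalled, at 327 and 328 CPM summed in sham, 245 and 245 CPM in intra-C and 205 and 293 CPM in intra-S livers.

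Of 17 other class I heavy chains tested, 1 was called, lower in both comparisons, beside 2.38% of all genes called lower in intra-C and 3.95% in intra-S livers. Cd1d1, which presents lipids to NKT cells, had 135 and 137 CPM in sham, 63.7 and 71.8 CPM in intra-C and 43.4 and 58.0 CPM in intra-S livers. It fell by 1.01 (SE 0.22, adjusted p = 0.046) and by 1.42 (SE 0.22, adjusted p = 0.016) on the log2 scale, and in intra-S livers the call was lost when only those groups were fitted. H2-Q10 was the most abundant of this list, at 1012 and 1011 CPM in sham, 937 and 782 CPM in intra-C and 415 and 812 CPM in intra-S livers. In TPM it stood 6.52 and 6.79 times above H2-K1 in sham livers, 4.89 and 4.39 times in intra-C livers, and 1.51 and 5.45 times in intra-S livers. The ratio was lowest in the first intra-S liver, where H2-K1 was highest. The difference of H2-Q10 in intra-S from sham was -0.72 (SE 0.34, adjusted p = 0.21).

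Of 8 tested genes around interferon γ, 1 was called higher in intra-C and 2 in intra-S livers, beside 4.92% and 6.78% of all genes. Irf8, a transcription factor of myeloid cells, had 3.87 and 3.30 CPM in sham, 9.60 and 12.4 CPM in intra-C and 13.9 and 14.4 CPM in intra-S livers and rose in both (log2 fold change 1.61, adjusted p = 0.020, and 1.98, adjusted p = 0.0099). Ifngr1, the ligand-binding receptor chain, had 14.0 and 15.7 CPM in sham, 27.4 and 35.1 CPM in intra-C and 55.3 and 38.4 CPM in intra-S livers, and rose in intra-S livers (1.66, adjusted p = 0.016). In intra-C livers its value was 1.07 (adjusted p = 0.055). Jak1, the most abundant of the list, was not called (0.70, adjusted p = 0.079, and 0.37, adjusted p = 0.25).

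Of 5 tested costimulatory and coinhibitory ligands, 3 were called higher in each comparison, beside 4.92% of all genes in intra-C and 6.78% in intra-S livers. Cd86, a ligand of CD28 on presenting cells, had 1.21 and 1.38 CPM in sham, 6.60 and 8.07 CPM in intra-C and 4.93 and 8.19 CPM in intra-S livers, and rose 5.65-fold (adjusted p = 0.017) and 5.06-fold (adjusted p = 0.015). Icosl, the ligand of ICOS, rose in intra-C (log2 fold change 1.81, adjusted p = 0.043), and Cd274, which encodes PD-L1, rose in intra-S livers (1.99, adjusted p = 0.048). Cd80, named here after its values were seen, was called in both (3.05, adjusted p = 0.041, and 2.86, adjusted p = 0.039) at levels of at most 1.86 CPM. Whether Icosl and Cd274 differed between intra-C and intra-S was tested directly, and no gene of this list was called there.

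**Figure D4:**
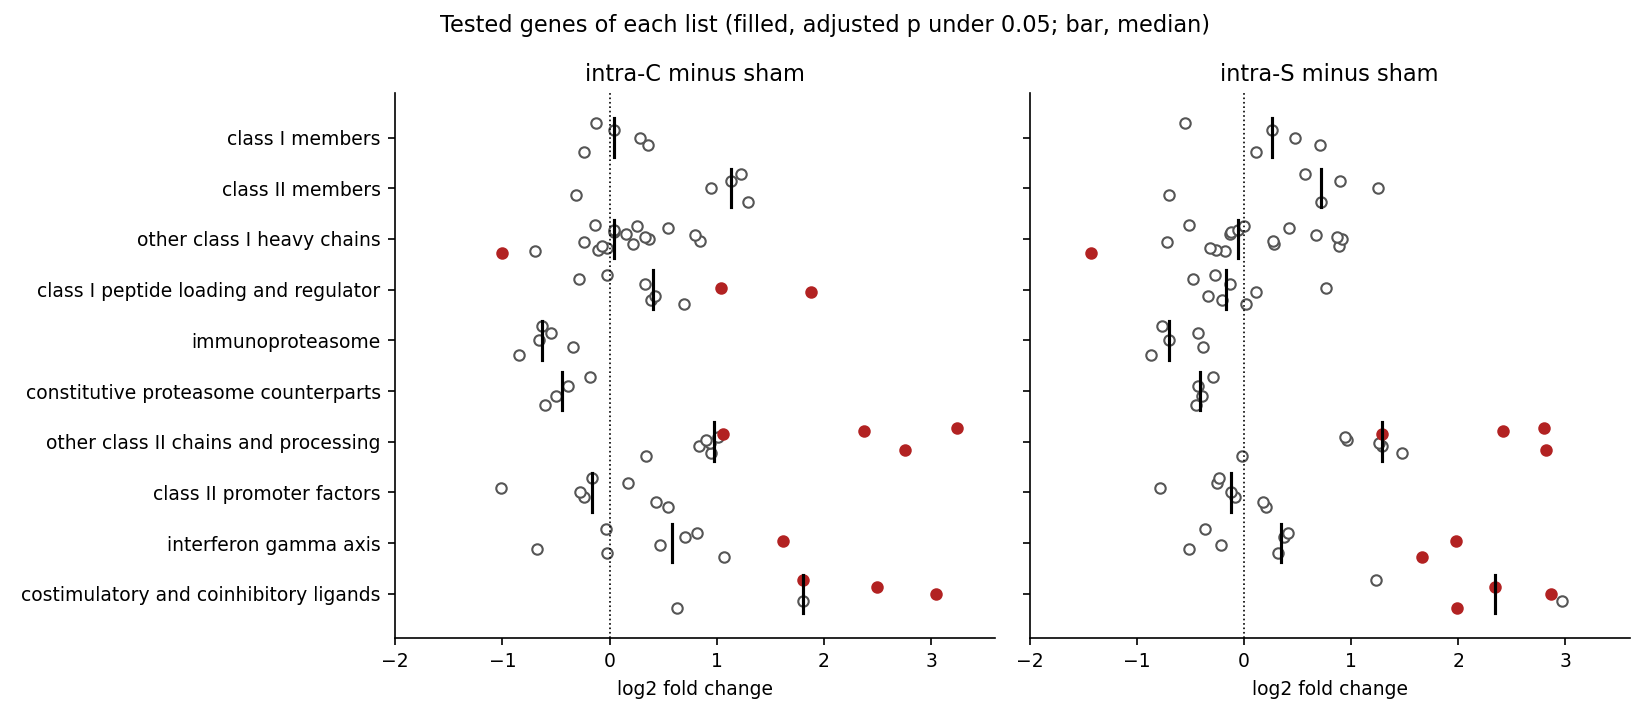
Log2 fold change against sham (x axis) of every tested gene in 10 lists (y axis) for intra-C and intra-S livers; filled points passed an adjusted p under 0.05 and bars are medians. Class II members have a median of 1.14 in intra-C and 0.72 in intra-S livers with no filled point, while the list of other class II chains and processing genes has 4 filled points in each panel.

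Sequence shared between genes bears on how these reads were placed. In the C57BL/6 transcripts (GENCODE vM21, longest coding transcript of each gene), no stretch of 100 bases of H2-K1 occurred in another gene, and 4.64% of those of H2-D1 did, mostly in other class I genes. H2-K1 and H2-D1 were 90.7% identical over 1472 aligned bases, with a longest identical run of 91 bases. For Tap1 3.96% of the stretches lay in Psmb9, its neighbor, and for Tap2 5.35% in overlapping gene models. B2m, H2-Aa, H2-Ab1, H2-Eb1, Cd74 and Ciita shared none. Related class I genes were less distinct, with 13.9% in H2-Q4, 13.0% in H2-Q6 and 16.4% in H2-Q7. The library kit does not mark strand, so reads of genes that overlap on opposite strands cannot be told apart. Reads of d haplotype chains that differ from the reference may not have been placed. The same reference served all 6 livers, and the effect on levels of H2-K1, H2-D1 and the class II chains was not tested.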

How the data were processed

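The authors isolated poly-A RNA from whole liver, made libraries with a NEBNext Ultra kit, aligned the reads to mm10 with HISAT2 2.1.0, counted unique exon reads with featureCounts (Subread 2.0.6), and deposited raw counts and TPM. The gene annotation and strand setting are not given in the sources used here. Each liver had between 32838321 and 43368309 counts. All further values come from R 4.3.3 and Python 3.11.15. Counts were tested with edgeR 4.0.16 (quasi-likelihood test, TMM, filterByExpr with a count minimum of 10, 1 fit over 6 livers, Benjamini-Hochberg adjustment). The procedure was run on simulated data, and its recovery of changes as small as those of the members is not given here. Alternatives were DESeq2 1.42.0, limma 3.58.1 on log2(TPM + 1) and log2(TPM + 0.1), other filters and scalings, a replicate block, only the 2 groups compared, and each liver left out. The members and gene lists were chosen with earlier results of these data known. From each list the gene with the highest mean TPM and up to 3 called genes per direction and comparison with the largest change at a mean of at least 1 CPM could be named, together with all members, H2-Ea and the 5 genes most like each class. Of the marker lists the genes are given as counts and sums. With 2 livers per group, no permutation of labels can reach a p under 0.05.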

Additional observations from a re-analysis of the deposited data

Results flagged for a closer look

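B2m was below both sham livers in both intra-C livers and above them in both intra-S livers. The direct difference between intra-S and intra-C was 0.35 on the log2 scale (SE 0.20, 95% interval -0.13 to 0.84) and was not called (adjusted p = 0.47 by edgeR's quasi-likelihood test). With library size in place of TMM, B2m was below sham in intra-S livers too (log2 fold change -0.16, or 0.11 relative to the move of the median of all genes), while the direct difference was 0.34.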

How the results depend on the processing

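Of 450 values of the 10 members (3 comparisons under 15 alternatives), 403 kept direction and side of the threshold, 29 passed it only under the alternative and 18 reversed. Class II members called in intra-C against sham were 0 in the report, 3 with DESeq2, 4 with only the 2 groups compared and 0 to 4 with 1 liver left out. In intra-S against sham, DESeq2 called 1 class II member, and leaving out 1 liver gave 0 to 4 of class II and 0 to 3 of class I. Between intra-S and intra-C, leaving out 1 liver gave 0 to 3 of class I and 0 to 2 of class II. Without either sham liver no gene at all was called, so those fits say nothing of the members. Calls over all genes were 1195 (intra-C) and 1756 (intra-S), 2819 and 3530 with DESeq2, 4771 and 392 with only the 2 groups compared, 61 to 65 and 492 to 543 without an intra-C liver, and 4591 to 4658 and 2900 to 5693 without an intra-S liver. Between intra-S and intra-C they were 0, 527 with DESeq2, and 55 and 2884 without the first and the second intra-S liver.

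Library size in place of TMM moved the median of all genes by -0.26 (intra-C) and -0.27 (intra-S), and turned the split of higher against lower calls from 806 and 389 to 569 and 801 (intra-C) and from 1110 and 646 to 838 and 1115 (intra-S). Relative to that shift, Tap1 was 0.02 in intra-C, and Tap1 0.26 and B2m 0.11 in intra-S, where they had reversed. Against sham, Tap1 in intra-C was -0.24 with library size, -0.11 and -0.16 on log2(TPM + 1) and log2(TPM + 0.1), -0.15 without the first sham liver, and -0.28 to 0.33 over all single livers left out. In intra-S, B2m was -0.16, -0.18 and -0.18 and Tap1 -0.011, -0.017 and -0.020 under these scalings. With 1 liver left out, H2-K1 ranged from -0.026 to 0.86 and H2-Eb1 from -0.013 to 0.99 in intra-S against sham. In intra-S against intra-C, H2-K1 ranged from -0.31 to 0.57, H2-D1 from -0.035 to 0.65 and H2-Aa from -0.29 to 0.73, each turned by an intra-S liver, and Tap1 from -0.051 to 0.55 and H2-Ab1 from -0.50 to 0.071, each turned by an intra-C liver. The causes were not tested.

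The replicate number as a block left the calls of members at 0, and gave 932 and 1507 calls over all genes. Deviations of same-numbered livers correlated at -0.03, 0.08 and 0.04, so the livers share only a number. Depth limits Ciita, with 24 to 67 counts.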
